A study of Mus musculus with 8 samples.

Results

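De novo lipogenesis is the making of new fatty acids from carbohydrate carbon, and the liver mRNA of 10 of its genes, Acss2, Acly, Acaca, Acacb, Fasn, Scd1, Elovl6, Srebf1, Mlxipl and Thrsp, was compared in mice fed a control diet or one low in amino acids. The genes were chosen by name as the core enzymes of the pathway and its main regulators, and all 10 are among the 11784 genes of the table of values for each mouse. Livers came from 8 male C57BL/6J mice with no genetic change, all of which changed at 9 weeks of age to an amino acid defined diet and were killed about 4 months later, in the morning, after a fast of about 16 hours. The 4 Control mice (diet TD.140711) drew 22% of calories from amino acids and about 59% from carbohydrate, and the 4 Low AA mice (diet TD.140712) drew 7.1% from amino acids and about 74% from carbohydrate, with nearly equal fat. Amino acids and carbohydrate were exchanged for each other, so the effect of less of one cannot be told apart from that of more of the other. Every mouse was fasted, a state in which this pathway runs low, so the values describe fasted liver only.

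The pathway starts from cytosolic acetyl-CoA, which ATP citrate lyase makes from citrate and acetyl-CoA synthetase makes from acetate. Acetyl-CoA carboxylase turns it into malonyl-CoA, fatty acid synthase builds palmitate, and an elongase and a desaturase turn palmitate into stearate and oleate. In liver the genes are driven after feeding by SREBP-1c, which responds to insulin, and by ChREBP, which responds to sugar, and their transcription falls with fasting.

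Poly(A) RNA was sequenced from stranded libraries, and each gene has 1 scaled and rounded read count per mouse. The sum over genes was 28361406 to 29485422 in the Control livers and 27876664 to 30799385 in the Low AA livers, and the 10 genes made up 0.16% to 0.26% of it. All 7 hepatocyte markers examined were present, with a summed scaled read count of 2138480 to 2530161 in Control mice and 2407378 to 2621088 in Low AA mice. Summed Kupffer cell markers (5 of 5 listed) were at 4351 to 6284 and 4744 to 6347 in Control and Low AA livers. All 5 had positive log2 fold changes, from 0.080 for Cd68 to 0.61 for Marco, with a median of 0.21, and 0 were called. Stellate and endothelial markers (8 of 8) summed to 4545 to 5560 and 4848 to 5495 in Control and Low AA livers. Within the latter list the collagen gene Col1a1 had 70 to 147 in Control and 37 to 69 in Low AA livers, without overlap (log2 fold change -1.07, limma adjusted p = 0.148). The log2 fold changes of Col3a1, Des, Lyve1 and Lrat were -0.48, -0.29, -0.035 and -0.033. Those of Kdr, Pecam1 and Stab2 were 0.16, 0.12 and 0.10, and the median of the list was -0.034. The 2 listed blood markers of 3 summed to 5052 to 20146 and 6654 to 10959, with log2 fold changes of -0.72 for Hba-a1 and -0.46 for Beta-s. The part of these cells in the results was not tested. Of the 6 adipocyte markers the table lists Adrb3 alone, at 87 to 136 in Control and 50 to 68 in Low AA livers, without Adipoq, Lep, Plin1, Retn or Cfd, and the part of adipocytes in the results was not tested. Control mouse F2212 had a scaled read count of 36587 for Cela1, a pancreatic elastase gene, against 130 to 288 in the other 7 mice. The calls, ratios and correlations of the 10 genes were therefore also made without F2212. The lists of other genes are given with all 8 mice only, so their counts and fold changes may rest on F2212. A bulk sample cannot tell a change in RNA per cell from a change in the number of cells of a type.

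None of the 10 lipogenesis genes was called different between the diets at an adjusted p under 0.05 in limma, against 0.399% of all genes. At an unadjusted p under 0.05 there were 2, Acss2 with lower and Acacb with higher values on the Low AA diet, against 11.8% of all genes. Acss2 was the 1 gene of the 10 in which the diets had no overlapping values, as in 6.81% of all genes. The log2 fold change, Low AA over Control on the log2(scaled read count + 1) scale, was positive in 4 genes and negative in 6, with a median of -0.041 beside 0.0023 over all genes tested. Its median size was 0.26, beside 0.14 over all genes. Over the 10 genes, the lowest bound of a 95% interval was -0.93, for Srebf1, and the highest 0.87, for Elovl6. The plot of fold changes with their intervals shows the genes on both sides of 0.

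**Figure D1:**
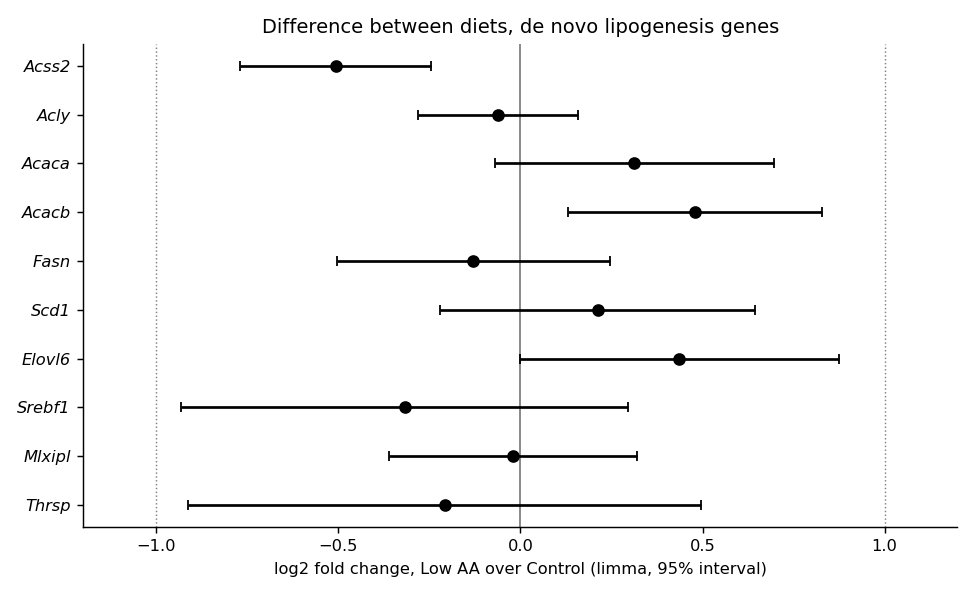
Difference between diets for the 10 genes. The horizontal axis is the log2 fold change, Low AA over Control, each point is the limma estimate from 4 against 4 mice and each bar its 95% interval, and dotted lines mark a log2 fold change of 1 in either direction. The interval of Acss2 lies below 0 and that of Acacb above it, while the other 8 include 0.

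Levels were compared between genes as scaled read counts per kilobase of transcript, with the length of the principal transcript in GENCODE, and the order of genes is a description. On this scale Scd1, the stearoyl-CoA desaturase that makes oleate, stood far above the rest, with 9010 ± 2798 in Control and 10110.4 ± 938 in Low AA mice (SD, n = 4 each). Mlxipl, the gene of ChREBP, came next, with 894 ± 186 and 871 ± 102 (SD, n = 4 each), and did not overlap Scd1 in either group. The lowest levels per kilobase in Control mice were those of Srebf1, at 159 ± 45.5, Fasn, at 156 ± 34.6, and Acaca, at 144 ± 24.8 (SD, n = 4 each), which overlapped one another and keep no firm order. Acss2 and Acly took neighbouring places. In Control mice Acss2, at 632 ± 76.0 per kilobase, was above Acly, at 480 ± 53.6, in 4 of 4 mice, and in Low AA mice Acss2, at 444 ± 43.8, was above Acly, at 458 ± 15.4, in 2 of 4 (SD, n = 4 each).

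**Figure D2:**
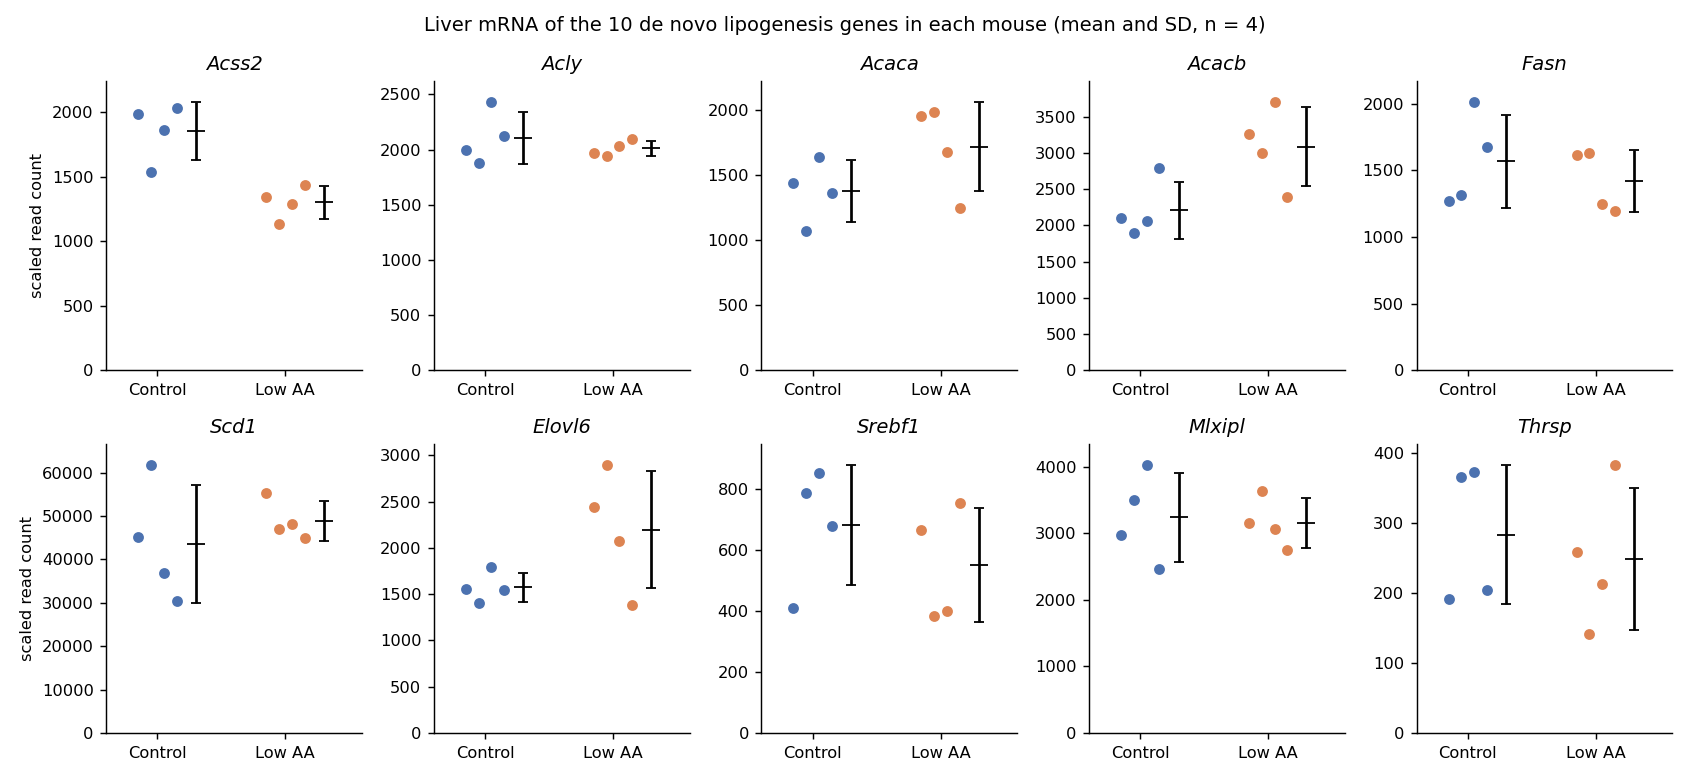
Scaled read count of each gene in each mouse, on vertical axes that start at 0. Points are mice, blue for Control and orange for Low AA, and black bars give the mean and SD of 4 mice. Acss2 is the one gene whose groups do not overlap, and Scd1 has by far the highest values.

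The first step makes acetyl-CoA. Acss2, on chromosome 2 from 155517948 to 155585724 in GRCm38, encodes the cytosolic enzyme that charges acetate. Its scaled read counts were 1984, 1536, 1862 and 2029 in Control mice F129, F2212, F7111 and F2110, and 1342, 1131, 1290 and 1438 in Low AA mice H1126, H828, H817 and H1315. Every Low AA mouse was below every Control mouse, with the closest values in F2212 and H1315. The means of 1853 ± 223 and 1300.2 ± 128 (SD, n = 4 each) gave a log2 fold change of -0.51 (standard error 0.12), a fold of 0.703 with an interval of 0.587 to 0.844. This did not pass in limma (adjusted p = 0.113) and was the smallest p that the exact permutation test of 4 against 4 mice allows (two-sided, p = 0.0286). Without Control mouse F2212 the log2 fold change was -0.59 and Acss2 was called (limma adjusted p = 0.0445), while in the other fits it stayed above the threshold, up to 0.323. The study drew a heatmap of genes it called different in these same mice. Its text does not say whether Acss2 is among them. The annotation has Gss on the opposite strand over part of Acss2, and how reads were assigned by strand is not given in the sources used here. Acaca shares part of its span in this way with Gm11437, and Srebf1 with Rai1.

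Acly encodes ATP citrate lyase, which makes acetyl-CoA from the citrate that carbohydrate supplies, and lies on chromosome 11 from 100476353 to 100528000. It had 2000, 1879, 2427 and 2121 in the 4 Control mice and 1970, 1946, 2030 and 2097 in the 4 Low AA mice, in the same order of mice as above. The Low AA values all lay inside the Control range. The log2 fold change was -0.061, with a 95% interval from -0.28 to 0.16 (limma adjusted p = 0.869), the narrowest interval of the 10 genes. How the mRNAs of these 2 routes to acetyl-CoA moved against each other is given further on as a ratio within mice.

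Bases before the start of Acss2, Acly and Fasn are shown, because Acss2 and Acly feed the same step with unlike values and Fasn is the enzyme the pathway is known by. The sequences are RefSeq's for GRCm38.p6, in the direction of transcription, from a window of 250 bases before the RefSeq start, at chr11:100528001-100528250 on the minus strand for Acly and chr11:120824548-120824797 on the minus strand for Fasn. For Acss2, on the plus strand, the 155 bases that also lie before the GENCODE gene are shown, at chr2:155517793-155517947. Capitals mark the letters that matched 1 of 4 motifs on either strand: the E-box CACGTG, the sterol regulatory element TCACNCCAC, the CCAAT box CCAAT and the GC box GGGCGG.
Acss2: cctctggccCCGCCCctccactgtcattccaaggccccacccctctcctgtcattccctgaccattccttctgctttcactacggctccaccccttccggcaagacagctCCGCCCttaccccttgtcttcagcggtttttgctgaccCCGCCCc
Acly: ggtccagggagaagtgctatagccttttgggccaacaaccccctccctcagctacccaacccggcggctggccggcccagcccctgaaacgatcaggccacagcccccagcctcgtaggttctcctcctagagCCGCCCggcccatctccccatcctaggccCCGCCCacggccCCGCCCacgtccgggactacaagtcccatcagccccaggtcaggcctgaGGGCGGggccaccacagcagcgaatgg
Fasn: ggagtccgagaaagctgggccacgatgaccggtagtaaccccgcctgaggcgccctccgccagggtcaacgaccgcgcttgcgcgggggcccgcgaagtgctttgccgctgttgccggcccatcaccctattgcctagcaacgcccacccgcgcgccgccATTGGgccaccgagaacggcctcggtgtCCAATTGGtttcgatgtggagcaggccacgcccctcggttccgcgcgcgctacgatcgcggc
Of the 10 genes, 9 had such a window and Scd1 had none. The windows of Acaca and Acacb lie inside these genes, 22316 and 18983 bases from the start of the GENCODE transcript used. In the whole windows Acss2 and Acly each held 4 GC boxes, of which 3 of Acss2 are in the stretch shown, Acss2 also a CCAAT box on the minus strand outside that stretch, Fasn 3 CCAAT boxes of which 2 overlap each other, and Elovl6 none of the motifs. Over the 9 windows, 3 held a GC box and 4 a CCAAT box, beside 32.7% and 33.8% of 32851 windows of all genes. A sterol regulatory element was matched in 1, that of Mlxipl, beside 1.05% of all windows, and an E-box in 0, beside 6.02%. Matches are letters only, and binding was not measured here.

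The 2 acetyl-CoA carboxylases make malonyl-CoA, the building unit of the chain. Acacb, on chromosome 5 from 114146535 to 114250761, encodes the form at the mitochondrial surface, whose malonyl-CoA holds back the entry of fatty acids for oxidation. It had 2102, 1893, 2066 and 2788 in Control mice F129, F2212, F7111 and F2110, and 3263, 2998, 3699 and 2392 in Low AA mice H1126, H828, H817 and H1315. The groups overlapped through 1 mouse on each side, F2110 and H1315. Means of 2212.2 ± 395 and 3088 ± 547 (SD, n = 4 each) gave a log2 fold change of 0.48 (standard error 0.16), a fold of 1.39 with an interval of 1.10 to 1.77 (limma adjusted p = 0.256). The exact permutation test over mice gave p = 0.0571 (two-sided).

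Acaca, on chromosome 11 from 84129672 to 84401651, encodes the cytosolic form that feeds fatty acid synthase. Its values were 1435, 1066, 1634 and 1361 in Control and 1951, 1983, 1677 and 1248 in Low AA mice. The lowest Low AA value was again that of H1315, and the other 3 Low AA mice were above every Control mouse. The log2 fold change was 0.31, with an interval from -0.070 to 0.69 (limma adjusted p = 0.533). With 1 mouse left out it ran from 0.20 without F2212 to 0.46 without H1315. Acaca and Acacb both had positive fold changes and neither passed the test.

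Fasn encodes the enzyme that builds palmitate, and lies on chromosome 11 from 120805846 to 120824547. It had 1271, 1313, 2011 and 1679 in the Control mice and 1618, 1631, 1249 and 1194 in the Low AA mice, with each group split into a lower and a higher pair. The log2 fold change was -0.13 with an interval from -0.50 to 0.25 (limma adjusted p = 0.833), which leaves room for a fold between 0.705 and 1.19. With 1 mouse left out in turn, the log2 fold change of Fasn ran from -0.22 without F129 to -0.0013 without F7111.

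Elovl6, the elongase that takes palmitate to stearate, lies on chromosome 3 from 129532355 to 129638495. It had 1560, 1409, 1789 and 1540 in Control mice and 2439, 2895, 2074 and 1387 in Low AA mice. As for Acaca, H1126, H828 and H817 were above every Control mouse, and H1315 was the lowest of all 8. The Control mean was 1574 ± 158 and the Low AA mean 2199 ± 637 (SD, n = 4 each). Their log2 fold change was 0.44, with an interval from -0.0016 to 0.87 (limma adjusted p = 0.424). With 1 mouse left out it ran from 0.29 without H828 (limma adjusted p = 0.691) to 0.64 without H1315 (limma adjusted p = 0.0998).

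Scd1 encodes the main desaturase of mouse liver, and lies on chromosome 19 from 44394455 to 44407879. It had 45083, 61742, 36796 and 30527 in Control mice and 55360, 47020, 48092 and 44941 in Low AA mice. The Control mice spanned the whole range of the Low AA mice, with F2212 the highest of the 8. The log2 fold change was 0.21 with an interval from -0.22 to 0.64 (limma adjusted p = 0.748). With 1 mouse left out it ran from 0.058 without F2110 to 0.40 without F2212. Scd1 and Scd2 are close in sequence, and reads that both share cannot be placed with certainty. Scd2 was far lower, at 137 to 162 in 3 of the Control mice and 120 in F2212, and Low AA mice had 98 to 125.

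Among the regulators, Srebf1, on chromosome 11 from 60199089 to 60222581, encodes SREBP-1, and its mRNA is itself raised by insulin and falls with fasting. It had 408, 787, 852 and 679 in the Control mice and 666, 384, 399 and 753 in the Low AA mice. Each diet held at least 1 mouse at 384 to 408 and 2 at 666 to 852, and the groups overlapped over almost their whole range. The log2 fold change was -0.32 with an interval from -0.93 to 0.30 (limma adjusted p = 0.733). With 1 mouse left out it ran from -0.55 without F129 to -0.17 without H828. The table gives 1 value per gene and does not separate the SREBP-1a and SREBP-1c transcripts.

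Mlxipl, on chromosome 5 from 135089890 to 135138382, had 2970, 3500, 4025 and 2460 in Control mice and 3162, 3643, 3060 and 2752 in Low AA mice. The Low AA mice lay inside the Control range, and the log2 fold change was -0.021 with an interval from -0.36 to 0.32 (limma adjusted p = 0.979). Its 2 isoforms are not separated in the table. Thrsp, on chromosome 7 from 97412938 to 97417730, encodes Spot 14, a protein that responds to thyroid hormone and carbohydrate and promotes lipogenesis. It had 191, 366, 373 and 204 in Control mice and 259, 141, 213 and 383 in Low AA mice, the widest relative spread of the 10 genes, with a coefficient of variation of 35.1% and 40.8%. Its log2 fold change was -0.21 with an interval from -0.91 to 0.50 (limma adjusted p = 0.860).

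Ratios between the genes were taken within each mouse, which removes differences in overall level between mice. This comparison was added after the values had been seen. Of the 45 ratios among the 10 genes, 4 did not overlap between the diets, beside 7.6% of the ratios of these genes to the genes outside the list, and 0 passed after adjustment over the 45 (exact permutation test over mice, two-sided, p = 0.0286 for each of the 4, 0.321 adjusted). In 3 of the 4, Acss2 was the denominator, and the ratio of Acss2 to any gene outside the list had no overlap in 38.2% of cases, so this count is no result about the other 3 genes.

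Acly over Acss2 was 1.01 to 1.30 under Control and 1.46 to 1.72 under Low AA, a log2 difference of 0.45. Acacb over Acss2 was 1.06 to 1.37 and 1.66 to 2.87, a log2 difference of 0.99, and Elovl6 over Acss2 was 0.759 to 0.961 and 0.965 to 2.56, a log2 difference of 0.94. The last pair of ranges was separated only narrowly, by F7111 and H1315. The fourth ratio, Acacb over Fasn, was 1.65, 1.44, 1.03 and 1.66 in Control mice F129, F2212, F7111 and F2110, and 2.02, 1.84, 2.96 and 2.003 in Low AA mice H1126, H828, H817 and H1315. It was higher in every Low AA mouse, by 0.61 on the log2 scale, with a background of 13.1% for Acacb and 2.78% for Fasn against other genes. Without F2212, 5 of the 45 ratios did not overlap, with Scd1 over Acss2 the one added.

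**Figure D3:**
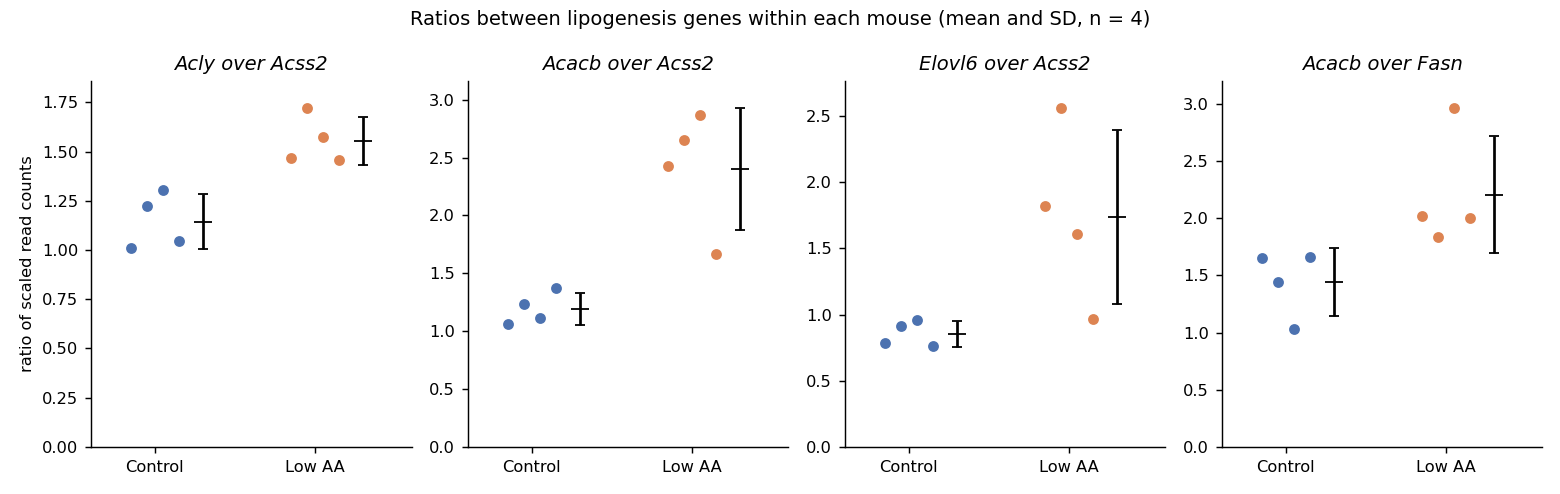
Ratios of scaled read counts between lipogenesis genes within each mouse, for the 4 ratios whose groups do not overlap, on vertical axes that start at 0. Points are mice, blue for Control and orange for Low AA, and bars give the mean and SD of 4 mice. The Low AA mice sit higher in each panel, by the least margin in Elovl6 over Acss2.

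Whether mice with more regulator mRNA had more enzyme mRNA was examined across the 8 mice, for 8 genes against Srebf1 and against Mlxipl, 16 relations in all. None passed after adjustment over the 16 relations with the values as deposited. The closest was Thrsp with Srebf1, with Pearson's r = 0.860 (exact permutation p = 0.0112, adjusted 0.180) and Spearman's rho = 0.810 (exact permutation p = 0.0218, adjusted 0.348). Its r was 0.804 without H828 and H817, the 2 mice farthest from the median of Srebf1, and 0.838 without F2212. On residuals from the diet means, permuted within diets, r was 0.859 (exact permutation p = 0.00174, adjusted 0.0278), the 1 relation of the 16 that passed in that form. The mice with least Srebf1 in each diet, F129 in Control and H828 in Low AA, were also those with least Thrsp.

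No enzyme had a relation with Srebf1 that passed. Fasn with Srebf1 had r = 0.311 (exact permutation p = 0.465, adjusted 0.636) and rho = 0.238 (exact permutation p = 0.582, adjusted 0.660), and r = 0.402 without H828 and H817. Acacb with Srebf1 had r = -0.495 (exact permutation p = 0.195, adjusted 0.636) and rho = -0.738 (exact permutation p = 0.0458, adjusted 0.367), and Elovl6 with Srebf1 had r = -0.518 (exact permutation p = 0.191, adjusted 0.636) and rho = -0.643 (exact permutation p = 0.0962, adjusted 0.385). Without H828 and H817 these 2 values of r were -0.031 and -0.0064, so they rest on those mice. Fasn with Mlxipl had r = 0.433 (exact permutation p = 0.278, adjusted 0.636) and rho = 0.452 (exact permutation p = 0.268, adjusted 0.566), and r = 0.662 without F7111 and F2110, the mice farthest from the median of Mlxipl. With 8 mice only strong relations could have passed.

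Among mice on the same diet, the residuals of Acaca and Elovl6 had a Pearson's r of 0.900, those of Acaca and Fasn 0.752, and those of Fasn and Elovl6 0.702. The 3 genes act in sequence from malonyl-CoA to stearate. Acly with Scd1 was at the other end, at -0.682. Over the 45 pairs the median was 0.073 and 27 were positive, so the list as a whole did not vary as 1 block. These values describe 8 livers and carry no test, and genes of one library share its depth. Over all 8 mice, the genes most like Fasn were Dync2h1, Pcbp3 and Utrn, with an r of 0.967, 0.965 and 0.959 among 11783 genes, and no other lipogenesis gene was above place 1597, that of Acly. The genes most like the mean of the 10 standardized levels were Aplp2, Ptprj and Foxo1, with an r of 0.956, 0.927 and 0.925 among 11774 genes.

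**Figure D4:**
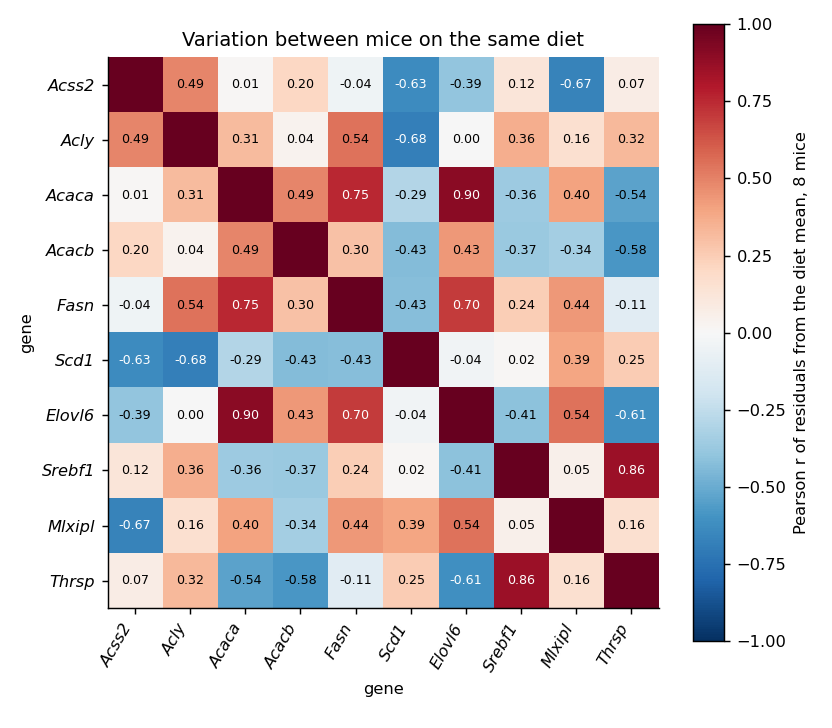
Pearson's r between the residuals from the diet mean of each pair of the 10 genes, over 8 mice, with genes on both axes and colour from -1 (blue) to 1 (red). Acaca, Fasn and Elovl6 form one set of high values and Srebf1 with Thrsp another, and the r of Elovl6 with Srebf1 is -0.41.

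Pathways around lipogenesis were described through 10 lists with 115 genes in the table, none of which was called in limma at an adjusted p under 0.05. At an unadjusted p under 0.05 there were 34 of the 115, beside 11.8% of all genes, and 16 did not overlap between the diets, beside 6.81% of all genes. The lists were chosen with earlier results of these data known, so these counts are a description only. Of the 34, 9 were in sterol biosynthesis, as were 4 of the 16. In the supply of carbon to cytosolic citrate, 2 of 13 genes had higher and 1 lower values without overlap, beside 6.81% of all genes in either direction. The lower one was Slc25a1, the carrier that exports citrate to Acly, with 3300 to 4381 in Control and 2754 to 3115 in Low AA mice (log2 fold change -0.31, limma adjusted p = 0.283). Other log2 fold changes were 0.68 for Khk, the enzyme of fructose entry, 1.40 for Pdk4, which shuts off pyruvate dehydrogenase in fasting, and -0.22 for Pklr, liver pyruvate kinase (limma adjusted p = 0.191, 0.324 and 0.650).

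In the supply of NADPH, the reducing power for Fasn, 1 of 7 genes did not overlap, a count too small to set apart from the 6.81% of all genes. This was G6pdx, with 116 to 131 in Control and 149 to 195 in Low AA mice (log2 fold change 0.38, limma adjusted p = 0.284). Tkt had 0.28 on the same log2 scale, and malic enzyme Me1, a known companion of lipogenesis, -0.13.

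Among 20 genes of SREBP processing and transcriptional partners, Insig1, which holds SREBP in the endoplasmic reticulum and is an SREBP target, had lower values without overlap, 1719 to 2311 in Control and 1057 to 1644 in Low AA mice (log2 fold change -0.57, limma adjusted p = 0.178). For Insig2, its relative raised in fasting, the log2 fold change was 0.53 (limma adjusted p = 0.389). For Bhlhe41 it was -1.49, at scaled read counts of 5 to 39, and for Nr1h3, the gene of LXR alpha, it was 0.018. Mid1ip1, the relative of Thrsp whose protein activates acetyl-CoA carboxylase, had 137 to 242 in Control and 98 to 167 in Low AA mice (log2 fold change -0.67, limma adjusted p = 0.266).

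Among 9 other targets of SREBP-1c, ChREBP and LXR, the median log2 fold change was 0.080. Tkfc, the triokinase of fructose breakdown, listed under its older symbol Dak, had 4388 to 5762 in Control and 2865 to 3684 in Low AA mice, without overlap (log2 fold change -0.66), just short of the threshold (limma adjusted p = 0.051). For Txnip, a ChREBP target, the log2 value was 0.31 (limma adjusted p = 0.499).

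Of the 8 relatives and chain-modifying enzymes in the table, Elovl5, an elongase of polyunsaturated chains, was higher without overlap, with 23719 to 36793 in Control and 42753 to 52009 in Low AA mice (log2 fold change 0.59, limma adjusted p = 0.133). In esterification, the log2 fold change of Gpam, the first enzyme of glycerolipid synthesis, was 0.38 (limma adjusted p = 0.579), and the median of the 9 genes was 0.15. The 11 lipid droplet proteins and lipases had a median of 0.23, with Plin5, a droplet protein of oxidative tissue, at 3062 to 4724 and 5481 to 6400 (log2 fold change 0.64, limma adjusted p = 0.0811). Genes without overlap were 1 of 8 relatives and chain-modifying enzymes, 1 of 9 in esterification and 2 of 11 droplet proteins and lipases, all higher on Low AA. In the 9 genes of the insulin and fasting response the median was 0.51, with 7 positive, 2 negative and 0 without overlap. The share without overlap over all genes was 6.81% in either direction. Of genes that insulin holds down, Igfbp1 was at 1.27, G6pc at 0.71 and Pck1 at -0.13 (limma adjusted p = 0.416, 0.282 and 0.797), and Akt2, a kinase of insulin signalling, was at -0.0030. Irs2 and Ppargc1a of the same list were at 0.57 and 0.51 (limma adjusted p = 0.611 and 0.751). Igfbp1 was low in Control mice F2212 and F7111 only, at 4873 and 4130. F2110 and F129, at 19707 and 26532, lay within the Low AA range of 15810 to 32575.

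The 20 genes of sterol biosynthesis, the branch served mainly by SREBP-2, had a median log2 fold change of -0.37, with 18 of 20 negative, 4 lower without overlap (6.81% of all genes in either direction) and 9 at an unadjusted p under 0.05 (11.8% of all genes). Msmo1, listed as Sc4mol, had the lowest value of the list, -0.91, and Sqle had -0.84 (limma adjusted p = 0.0847 and 0.0897). Acss2, with -0.51, and Insig1, with -0.57, are both known to respond to SREBP-2 also, while Fasn and Scd1 are mainly targets of SREBP-1c. The part of SREBP-2 in the values of these genes was not tested. Srebf2, which encodes it, ranged from 775 to 836 under Control and from 738 to 848 under Low AA, overlapping, at -0.065 on the log2 scale. The median of the 10 lipogenesis genes was near that of all genes, and a difference between the 2 lists was not tested.

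**Figure D5:**
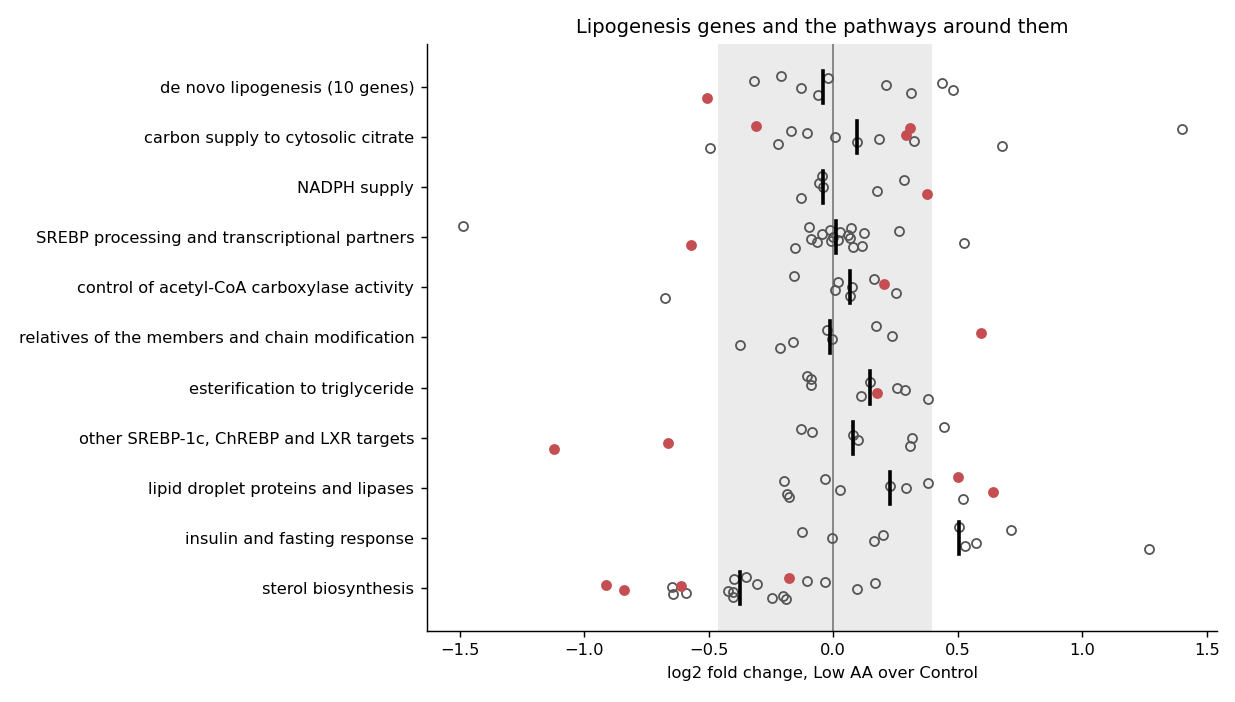
Log2 fold change, Low AA over Control, for each gene of the 10 lipogenesis genes and of the lists around them. Each circle is a gene, filled red where the 4 Low AA mice do not overlap the 4 Control mice, black bars are list medians, and the grey band holds the 5th to 95th percentile of all genes, -0.46 to 0.39. The lipogenesis genes spread on both sides of 0, sterol biosynthesis lies mostly to the left, and insulin and fasting genes lie mostly to the right.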

How the data were processed

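Liver poly(A) RNA of 4 Control and 4 Low AA mice was analysed with each mouse as 1 replicate. The p-values set differences against the spread between these mice, which limma moderates with that of other genes. The mice were group housed, and the sources used here do not give the cage of each. The authors deposited 1 table with a score per gene and mouse, a read count that had been scaled and rounded to whole numbers. The submitters' processing notes name bcl2fastq 1.8.2, STAR 2.5.0a, RSEM 1.2.6, edgeR 3.10.5, R 3.2.1 and genome build mm10, while the sources used here do not give the scaling and filter. Medians over genes lay between 433 and 449 in the 8 mice, low values had regular gaps, and every gene had at least 28 in 3 or more mice. The 2 columns with the authors' own fold change and FDR were not used. Because these are not raw counts, the design for scaled values was applied and no count model was run. The counting error behind each value could not be computed from scaled values.

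On the log2(value + 1) scale the diets were compared by limma (version 3.58.1, under R 4.3.3), whose moderation followed the mean level. P-values were adjusted over the 11784 genes by Benjamini-Hochberg, and 0.05 was the threshold. A minimum of 1 in 4 or more mice took out 0 genes. The fit was tested on simulated data. Fold changes on this scale understate those of low genes. Single genes, ratios and correlations used exact permutation tests over mice. The smallest p of 4 against 4 mice is 0.0286. Genes named were the 10 lipogenesis genes, called genes, a few preset genes, and the 3 genes most like 2 patterns. Also named were up to 2 highest and 2 lowest log2 fold changes of each list, and some other list genes such as Srebf2. Those that add nothing to a list's counts are not printed, and some genes counted in the lists are not reported here by name. The ratios within mice and the fits without F2212 were added after values had been seen. The 10 genes and the lists were chosen with earlier results of these data known. Positions and lengths are those of GENCODE M21 (GRCm38, the assembly of mm10), and older symbols were matched through RefSeq synonyms. Pnpla3, among others, is not in the table. Figures were drawn with matplotlib 3.10.9.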

Additional observations from a re-analysis of the deposited data

Results flagged for a closer look

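In groups of 4 mice, 134 of which were examined over 67 genes, 5 held 1 mouse far from the other 3, and chance gives about 1 in 20. None of the 5 was among the 10 lipogenesis genes. Low AA mouse H1315 stood apart in 3. For Mid1ip1, the relative of Thrsp, it had a scaled read count of 167 against 98 to 107 in the other Low AA mice (gap over range 0.835). For Acss3, a mitochondrial relative of Acss2, it had 322 against 455 to 460 (0.969), and for Apoa1, a hepatocyte marker, 312250 against 244211 to 253402 (0.85). H1315 was also the lowest Low AA mouse for Acacb, Acaca, Elovl6, Fasn, Scd1 and Mlxipl and the highest for Srebf1, Thrsp, Acss2 and Acly. Control mouse F2212 stood apart for Cela1, with 36587 against 130 to 178 (0.945), and Control mouse F129 for Bhlhe41, with 12 against 37 to 39 (0.954).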

How the results depend on the processing

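No paired analysis was possible because the mouse codes are not shared between the diets. Each lipogenesis gene was refitted under 16 alternatives. With other pseudocounts (0.1 and 5), the 8000 genes of highest mean, equal column totals, median-ratio scaling, no trend, robust moderation or vooma weights, the call of none of the 10 genes changed, and no sign did. With 1 mouse left out, the number of lipogenesis genes called ran from 0 to 1, the 1 being Acss2 without Control mouse F2212. The sign turned for Mlxipl (log2 fold change -0.15 to 0.091), Acly (-0.11 to 0.0089) and Thrsp (-0.44 to 0.034), and the median of the 10 genes ran from -0.072 to 0.050. Over all genes tested 47 were called, 19 with the 8000 genes of highest mean, where fewer genes were tested, 30 without the trend, where the cause was not tested, and 16 to 77 with 1 mouse left out. They were 29 without F129, 77 without F2212, and 21, 19 and 16 without H1126, H828 and H817. Of the 16 regulator correlations 0 passed with values as deposited, 1 on residuals from the diet means, and 0 without the 2 farthest mice or without F2212. Scaled values and 4 mice per diet limit the precision of low genes such as Thrsp most.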

Other observations

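Mice on the same diet differed in genes that feeding and insulin are known to move. Igfbp1, which insulin holds down, had scaled read counts of 4873 in F2212 and 4130 in F7111, while F2110 and F129 had 19707 and 26532, and Low AA mice ranged from 15810 to 32575. The same 2 mice had the highest Srebf1 of the 8, at 787 and 852 against 384 to 753, and the highest Plin4, a droplet protein, at 1991 and 2123 against 326 to 1033. For Fasn they had 1313 and 2011, in the lower and the upper part of the range of the 8 mice. These genes were picked after their values were seen, and no test was made.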
